A study of Mus musculus with 30 samples.

Results

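The 10 goblet cell mucus genes Muc2, Muc1, Muc4, Muc13, Tff3, Fcgbp, Clca1, Zg16, Agr2 and Spdef were followed by name through the colon transcriptome. All 10 were found among the 46078 genes of the count table. Gene expression was measured by RNA-seq of frozen colon from C57BL/6J mice in 5 groups of 6 animals, and each animal gave 1 library. The groups were CD females, CD males, HFD females and HFD males, all given vehicle, and HFD males given 17β-estradiol (E2). CD is a low-fat control diet and HFD a high-fat diet, both fed for 13 weeks to animals that started as young mice, 5 to 6 weeks old. All groups had 9 intraperitoneal injections during the last weeks, and the E2 dose was 0.5 mg/kg. The females were not ovariectomized, so their own estrogen was present, and E2 was given only to HFD males in these libraries. The libraries were made from total RNA of the tissue, so fewer goblet cells and less RNA per goblet cell cannot be told apart.

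Goblet cells are the secretory cells of the colon epithelium that fill, store and release mucus. MUC2 is the gel-forming mucin of the colon, and FCGBP, CLCA1, ZG16 and TFF3 are secreted with it: FCGBP is a mucus protein of unknown detailed function, CLCA1 a metalloprotease that acts on the mucus, ZG16 a lectin that binds Gram-positive bacteria and TFF3 a trefoil peptide of epithelial repair. AGR2 is a protein disulfide isomerase of the endoplasmic reticulum needed to make MUC2, and SPDEF is the transcription factor of goblet cell maturation. MUC1, MUC4 and MUC13 are membrane mucins, which sit in the apical surface of epithelial cells and are not confined to goblet cells.

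The promoters of 4 genes are shown because these genes were higher both in CD females than in CD males and in E2-treated than in vehicle-treated HFD males at the threshold of the study. That threshold is a log2 fold change beyond 0.4 in either direction with a p under 0.05. The study does not say whether its p, from DESeq2, was adjusted, and the unadjusted p of edgeR was used for it here. Each is the 250 bases upstream of the RefSeq start site (GRCm38.p6), read in the direction of the gene. Capitals mark matches, on either strand, to GGATG (a core of the ETS-type site of SPDEF), TATAAA (the letters of a TATA box, at any position) and TTTATG (a core of the CDX2 site).
Muc2: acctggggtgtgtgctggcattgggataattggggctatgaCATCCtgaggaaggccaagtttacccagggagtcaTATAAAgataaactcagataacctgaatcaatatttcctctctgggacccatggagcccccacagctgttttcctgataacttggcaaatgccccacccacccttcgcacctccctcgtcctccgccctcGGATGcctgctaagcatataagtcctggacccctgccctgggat
Fcgbp: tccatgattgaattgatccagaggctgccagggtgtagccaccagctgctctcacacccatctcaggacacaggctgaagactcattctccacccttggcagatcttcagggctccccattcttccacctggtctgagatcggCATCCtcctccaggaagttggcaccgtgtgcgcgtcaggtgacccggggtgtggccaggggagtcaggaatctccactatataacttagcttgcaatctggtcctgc
Muc1: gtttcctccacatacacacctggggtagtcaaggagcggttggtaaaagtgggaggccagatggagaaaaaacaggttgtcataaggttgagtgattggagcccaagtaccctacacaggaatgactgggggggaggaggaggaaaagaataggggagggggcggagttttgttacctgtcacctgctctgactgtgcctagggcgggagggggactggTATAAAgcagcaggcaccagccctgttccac
Spdef: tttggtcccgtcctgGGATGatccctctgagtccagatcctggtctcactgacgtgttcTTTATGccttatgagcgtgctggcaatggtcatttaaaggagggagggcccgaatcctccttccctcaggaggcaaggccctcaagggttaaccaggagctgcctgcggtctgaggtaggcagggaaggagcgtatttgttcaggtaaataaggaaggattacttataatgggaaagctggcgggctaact
The Muc2 window lies at chr7:141690090-141690339 on the plus strand and holds GGATG at 2 places and TATAAA once, 174 bases before the start. The Fcgbp window, chr7:28070986-28071235 on the plus strand, and the Spdef window, chr17:27728952-27729201 on the minus strand, hold GGATG once each, and the Spdef window also holds TTTATG. The Muc1 window, chr3:89228806-89229055 on the plus strand, holds TATAAA 31 bases before the start and no GGATG. The same table held 7 of the 10 genes, with 8 start sites. Of these 8 windows, 5 held GGATG, against 37.3% of all 32851 windows of this length; 3 held TATAAA, against 12.4%; and 3 held TTTATG, against 10.8%. The estrogen receptor letters were also searched on both strands: the full palindromic estrogen response element was in 0 of the 8 windows and in 0.0639% of all windows. Its part AGGTCA was in 2 of the 8 windows, both of Muc13, and in 14% of all windows. The letters TGTTTAC, a core of the FOXA site, were in 0 of the 8 windows and in 3.17% of all. These matches describe letters only, and none of the windows was assayed for binding here.

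The genes lie on 5 autosomes. In the coordinates of the authors' files (GRCm38), Muc2 covers chr7:141690340-141754693, Fcgbp chr7:28071236-28120862 and Zg16 chr7:127050156-127051977. Muc1 covers chr3:89229057-89233381, Clca1 chr3:145003817-145032776, Muc4 chr16:32735886-32782391 and Muc13 chr16:33794037-33819934. Tff3 covers chr17:31125306-31129646, Spdef chr17:27714352-27728951 and Agr2 chr12:35992907-36004087. All are protein coding in GENCODE M21. The 3' end of Muc4 overlaps Muc20 on the other strand, and Muc20 had at most 18 counts in any library. Muc13 overlaps an antisense gene, and the strand setting of the counting is not given in the sources used here. GENCODE M21 gives Zg16 and Spdef other coordinates than the authors' files. There Zg16 overlaps 2 genes on the other strand, at chr7:127068456-127071039 and chr7:127079481-127079587. Both lie outside the Zg16 span of the authors' files.

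The counts on genes ranged from 8667177 to 17243712 per library (median 11530916), of which mitochondrial genes took 26.1% to 38.0%. The 10 genes together took 0.480% to 1.03% of the counts of a library. The share was 0.832% to 1.02% in CD females (median 0.874%) and 0.545% to 0.904% in CD males (0.707%). It was 0.602% to 1.03% in HFD females (0.814%), 0.480% to 0.845% in HFD males (0.682%) and 0.780% to 0.973% in E2-treated HFD males (0.843%). By this share, the highest median was in CD females and the lowest in HFD males, and the ranges of all groups overlapped. The order depended on the measure. Without mitochondrial genes in the total, CD females stayed highest (median 1.33%). CD males were then lowest (1.05%, against 1.07% in HFD males). Below, CPM is the count scaled to the TMM-normalized library total, and compares 1 gene between libraries. TPM, which also divides by gene length, compares genes with each other. By the TPM sum of the 10 genes, E2-treated HFD males had the highest median (6084, against 5692 in CD females). CD males had the lowest (4791, against 5363 in HFD males).

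By TPM, the mean over 30 libraries was highest for Muc2, the gel-forming mucin (2088), which ranked 29 among all genes. Next came Muc13 (784), Zg16 (758), Tff3 (569), Fcgbp (449.9), Agr2 (380.2) and Clca1 (326). The membrane mucins Muc1 (11.7) and Muc4 (6.40) and the factor Spdef (8.55) were far lower. The mean CPM divided by the total exon length in kilobases gave another order at the top: Muc13 (468), Tff3 (419), Muc2 (309.6), Zg16 (307), Clca1 (235), Fcgbp (228) and Agr2 (176). Both scales put Muc1, Spdef and Muc4 last. The longest coding transcript that GENCODE M21 gives for Muc2 is 2926 bases with 19 exons, in a gene of 64354 bases, so its level per length depends on the annotation. Counts were ample for 9 genes, from 97 upward in each library, whereas Spdef had 70 to 182 counts per library. The fold between the highest and the lowest library in CPM was 8.13 for Muc4, 5.37 for Zg16 and 4.47 for Tff3, and only 1.92 for Muc13.

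**Figure D1:**
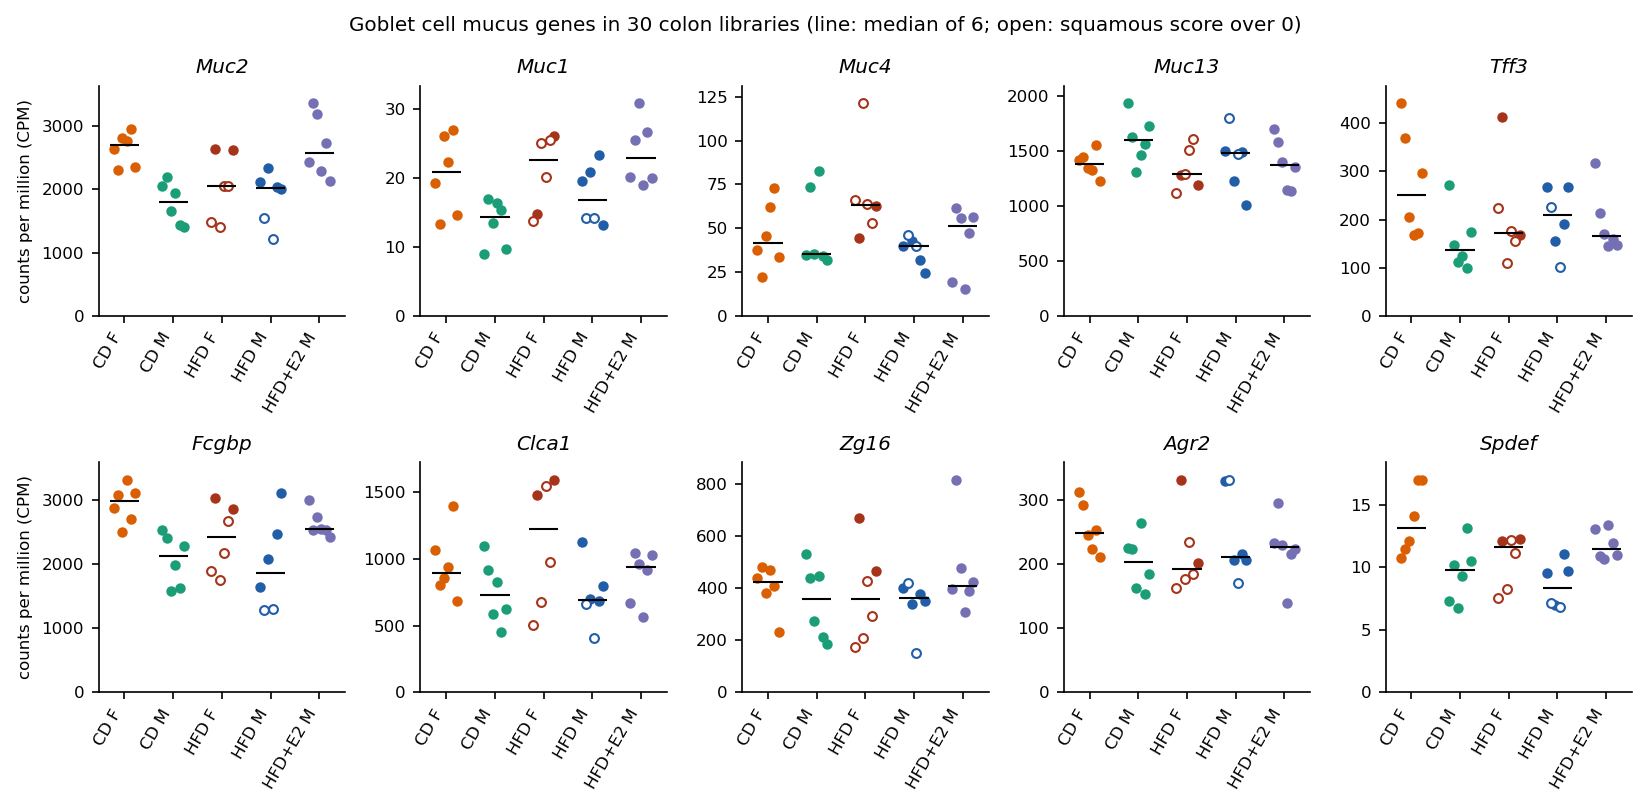
CPM of each of the 10 genes (y axes from 0, linear) in the 30 libraries, by group on the x axis; each point is 1 animal, the line is the median of 6, and open points are libraries with squamous epithelium genes. Muc2 was between 2299 and 2955 CPM in CD females and between 1408 and 2191 CPM in CD males, without overlap.

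Expression of genes of stratified squamous epithelium, which is not part of the colon lining but borders it at the anus, set 6 libraries apart. The squamous score, the mean log2 CPM of 15 genes such as Krt5, Krt13 and Trp63, was between 2.28 and 6.22 in HFD female replicates 1, 3, 4 and 5 and in HFD male replicates 2 and 4. In the other 24 libraries it was under 0. These libraries were not spread over the groups, with 4 of 6 in HFD females, 2 of 6 in HFD males and 0 of 18 elsewhere. Epithelium genes in general, such as Epcam and Cdh1, were present in every library, with scores from 7.39 to 7.98. Within HFD females, Muc2 was 1412 to 2061 CPM in the 4 libraries with squamous genes and 2620 to 2637 CPM in the other 2. Fcgbp was 1744 to 2675 CPM against 2848 to 3021 CPM, and Zg16 was 174 to 426 CPM against 467 to 671 CPM. For these 3 genes the libraries with squamous genes were the lower ones, without overlap. The others of the 10 genes overlapped, such as Clca1 (506 to 1551 CPM against 1481 to 1597 CPM). In HFD males the libraries with squamous genes were the lower ones, without overlap, for Muc2, Fcgbp and Clca1. Muc2 was 1208 to 1552 CPM in 2 libraries with squamous genes and 2008 to 2345 CPM in the other 4. Fcgbp was 1287 to 1294 CPM against 1635 to 3101 CPM, and Clca1 was 407 to 659 CPM against 682 to 1126 CPM. Zg16 was not split in these males, at 152 and 419 CPM in the 2 libraries and 338 to 399.9 CPM in the others. Muc4, a mucin that is also made by stratified epithelia, was 53.0 to 122 CPM in the HFD females with squamous genes and 44.3 to 62.4 CPM in the others. Values of comparisons with these groups are therefore also given without the 6 libraries, for the 10 genes and the related genes named. Such fits keep only 2 HFD females and 4 HFD males. Their counts past a threshold are given without the share of all genes. The squamous score was also a covariate in alternative fits, given with the dependence on processing. The part of the squamous tissue in the results was not tested otherwise.

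**Figure D2:**
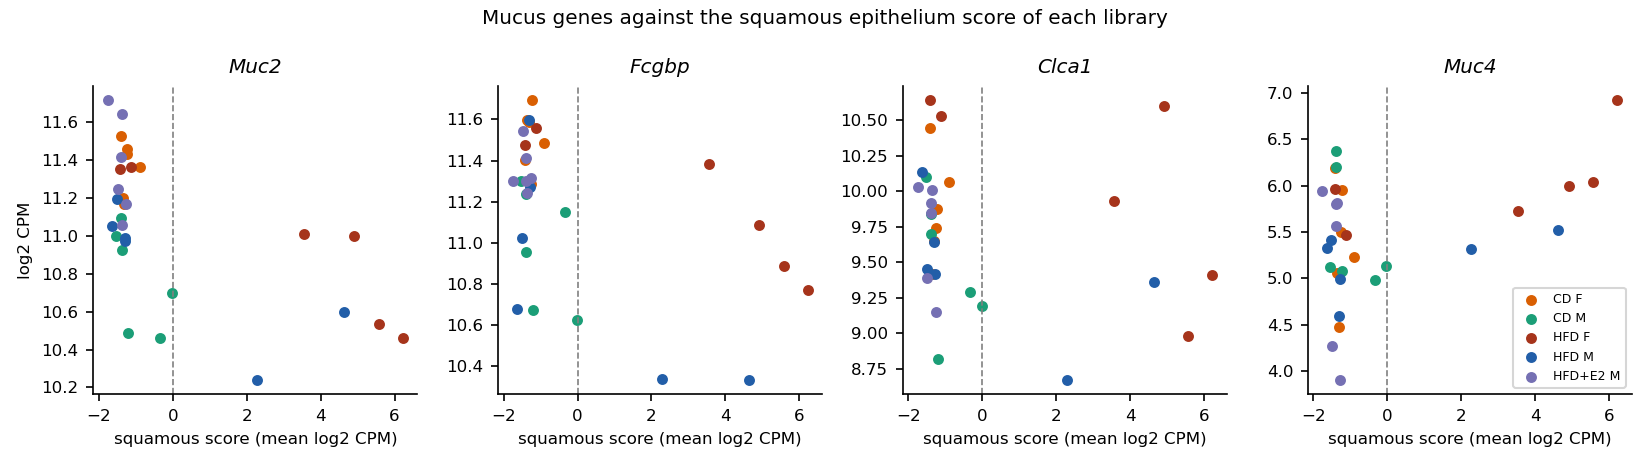
Log2 CPM of Muc2, Fcgbp, Clca1 and Muc4 (y axes) against the squamous epithelium score of each library (x axis, mean log2 CPM), coloured by group; the dashed line is at 0. The 6 libraries right of the line are HFD females and HFD males, and in them Muc2 lies between 1208 and 2061 CPM.

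Muc2, Fcgbp, Clca1, Zg16, Tff3 and Agr2 varied together between animals, though some pairs only weakly. The values in this paragraph are Pearson's r of log2 CPM, over 30 libraries that differ in group, tissue composition and depth, and then of the deviations from the group means. Muc2 was closest to Zg16 (0.77, and 0.81 within groups), Fcgbp (0.74 and 0.60) and Clca1 (0.66 and 0.79). Zg16 was close to Clca1 (0.75 and 0.82) and Agr2 (0.73 and 0.79), and Tff3 to Agr2 (0.65 and 0.60). Among the 45 pairs, 12 had r over 0.5 over all libraries and 9 within groups. Of the membrane mucins, Muc1 was at 0.58 to Muc2, and 0.42 within groups. Muc13 had no r over 0.31 with another of the genes over all libraries, and Muc4 had none over 0.40. Muc1 and Muc4 were at 0.40, and 0.58 within groups, while Muc1 and Tff3 were at -0.20 and -0.54. Spdef was closest to Fcgbp (0.67 and 0.43) and Muc2 (0.56 and 0.26). These are descriptions, and genes of 1 tissue sample share its composition: within groups, Tff3 was at -0.79 to the smooth muscle score, and Zg16 and Clca1 were at 0.80 and 0.83 to the score of absorptive colonocytes.

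Outside the gene lists, the genes most like each mucus gene were found by the same measure over 30 libraries. For Muc2 they were Tph1, the serotonin synthesis enzyme of enteroendocrine cells (0.91), Scin, an actin-severing protein (0.88), and P2rx4, an ATP-gated channel (0.87). For Tff3 they were Spink1, a trypsin inhibitor (0.94), Yipf1 (0.93) and Mien1 (0.91), and for Agr2 they were Stt3a, a subunit of the N-glycosylation complex (0.90), Tubgcp4 (0.89) and Ccl6 (0.87). Spdef was most like Chga, a granule protein of enteroendocrine cells (0.77), Zan (0.71) and Map7 (0.70). Fcgbp was most like Acp5, Map7 and Slc39a5 (0.78 to 0.80), Clca1 most like Mptx1, Sult1a1 and Gcg (0.78 to 0.80), and Zg16 most like Nxpe4, Ugt1a7c and Ckmt1 (0.78 to 0.81). Muc1 was most like Anapc13, Ppp1r11 and Fads2 (0.79 to 0.83). The values were lowest for Muc4 (Pa2g4, Cdca3 and Tpx2, 0.72 to 0.73) and Muc13 (Prom1, 2010109I03Rik and S100a10, 0.67 to 0.72).

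**Figure D3:**
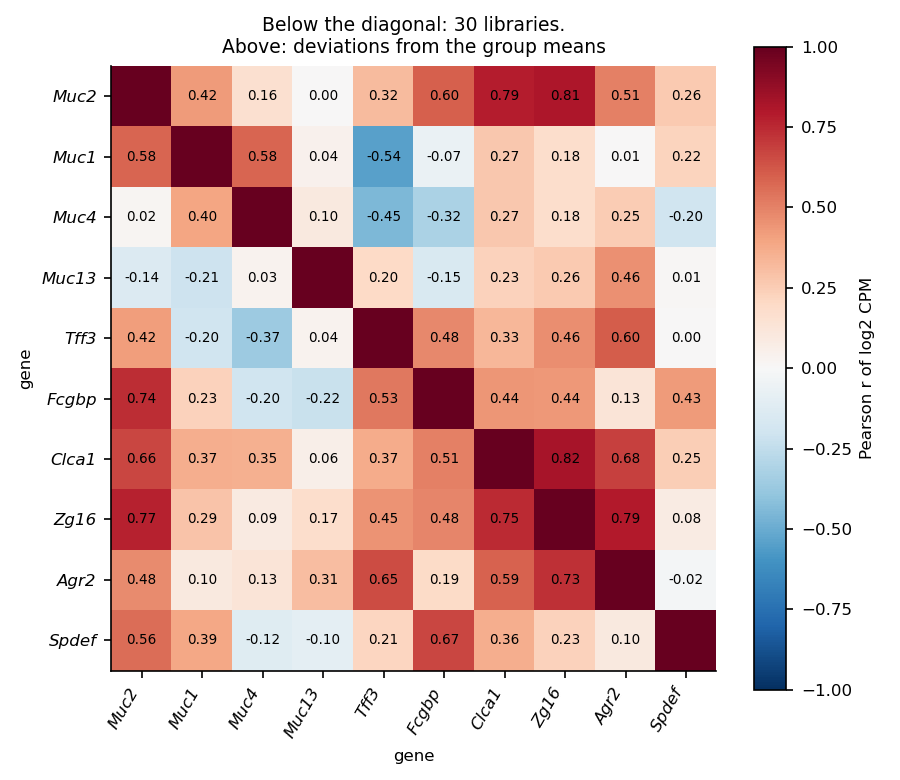
Pearson's r of log2 CPM between the 10 genes (both axes), over the 30 libraries below the diagonal and of deviations from the group means above it; colour runs from -1 (blue) to 1 (red). Muc2, Clca1, Zg16 and Agr2 form a block, with Muc2 and Zg16 at 0.77 and 0.81, while the values of Muc13 are pale, at most 0.46.

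The first comparison asked whether the mucus genes differ between the sexes on CD. CD females had more Muc2 and Fcgbp mRNA than CD males, and Tff3, Muc1 and Spdef were also higher at the weaker threshold of the study. Muc13 and Muc4 did not follow. Muc2 was 2299 to 2955 CPM in CD females (median 2698) and 1408 to 2191 CPM in CD males (median 1795). Every female was above every male. Muc2 was the only 1 of the 10 genes whose groups did not overlap, against 2.18% of all genes tested. Its log2 fold change was 0.57 ± 0.12 (SE, n = 6 per group; 1.48-fold, adjusted p = 0.0190, edgeR). The exact two-sided permutation test gave p = 0.00216, the smallest that 6 animals against 6 can give. Fcgbp was 2498 to 3315 CPM in females (median 2971) and 1575 to 2524 CPM in males (median 2125), so that only the lowest female and the highest male overlapped. Its log2 fold change was 0.50 ± 0.13 (1.42-fold, adjusted p = 0.0398, edgeR).

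Thus 2 of the 10 genes passed the adjusted p of 0.05, both higher in females, when 2.92% of all genes did, 0.777% as higher in females. At the threshold of the study, read with the unadjusted p, 5 of 10 genes passed, all higher in females, when 9.15% of all genes did, 2.94% as higher in females. Tff3 was 168 to 442 CPM in females and 99.0 to 271 CPM in males, with a log2 fold change of 0.84 ± 0.29 (adjusted p = 0.173, edgeR, and exact permutation p = 0.0346). Its groups overlapped widely, and its SE was the largest among the secreted genes. Muc1 was 13.4 to 27.1 CPM in females and 8.94 to 17.0 CPM in males (0.61 ± 0.21, adjusted p = 0.143, edgeR). Spdef, the factor of goblet cell maturation, was 10.7 to 17.1 CPM in females and 6.78 to 13.2 CPM in males (0.54 ± 0.18, adjusted p = 0.126, edgeR). The values of the remaining secretory genes were positive without passing either threshold. Agr2 was at 0.34 ± 0.13, Clca1 at 0.35 ± 0.21 and Zg16 at 0.20 ± 0.26 in log2 fold change (adjusted p = 0.224, 0.472 and 0.789, edgeR). Muc13 was at -0.21 ± 0.10 and Muc4 at -0.10 ± 0.33 (adjusted p = 0.343 and 0.929, edgeR), and Muc4 turned to 0.03 to 0.12 when CD female replicate 2 or CD male replicate 2 or 4 was left out. The median over the 10 genes was 0.43, beside 0.01 over all genes tested. The 10 genes were chosen with earlier results of these data known, so such counts and shares describe and do not test.

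Other tissue genes differed between the same animals. All 10 smooth muscle genes were lower in CD females (median log2 fold change -0.59, score 8.52 to 9.20 in females and 8.99 to 9.72 in males). Of these 6 had an adjusted p under 0.05 (edgeR), beside 2.92% of all genes in either direction. All 10 B cell genes had positive values (median 1.34, score 1.10 to 3.47 in females and -1.29 to 2.98 in males). Of these 5 were past the threshold of the study, beside 2.94% of all genes as higher in females. The 9 genes of epithelium in general were between -0.09 and 0.17 in log2 fold change, with none past either threshold (0 at an unadjusted p under 0.05 in edgeR, and DESeq2 called 0). Of 10 absorptive colonocyte genes 3 were lower and 0 higher at the threshold of the study, beside 9.15% of all genes in either direction. Of their values 6 were below 0 and 4 above. Among the latter, Car2 (0.21 ± 0.10) and Ceacam1 (0.28 ± 0.12) had an unadjusted p under 0.05 (edgeR). With the smooth muscle score as a covariate, Muc2 was at 0.69 (adjusted p = 0.0514) and Fcgbp at 0.28 (adjusted p = 0.367), Tff3 turned to -0.12 and Muc4 to 0.73, while Muc1 was at 1.34 (adjusted p = 0.00815, edgeR). With the B cell score, Muc2 was at 0.47 (adjusted p = 0.267) and Fcgbp at 0.31 (adjusted p = 0.517). The score of epithelium in general left Muc2 at 0.59 (adjusted p = 0.0198) and Fcgbp at 0.59 (adjusted p = 0.00238). On log2(TPM + 1), Muc2 was at 0.40 (adjusted p = 0.429) and Fcgbp at 0.40 (adjusted p = 0.342, limma). The call of Muc2 was lost without CD male replicate 3 or 5 (adjusted p = 0.0524 and 0.0521), and that of Fcgbp when any 1 of 8 of the 12 libraries was left out (adjusted p up to 0.0940).

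Genes that work with the mucus genes were examined as lists. The lists were chosen with earlier results of these data known. Their counts beside the shares over all genes are therefore a description, in every comparison, and not a test. Of 27 tested genes of mucin O-glycosylation, the pathway that builds the sugar chains of mucins, 4 were higher in CD females by adjusted p and 0 lower (median 0.13), beside 0.777% of all genes called higher. Chst4, a sulfotransferase, had the largest change: 17.9 to 30.1 CPM in females and 7.76 to 16.6 CPM in males (0.95 ± 0.18, adjusted p = 0.00889, edgeR). Gcnt3, the enzyme that branches mucin chains, was 100.5 to 121 CPM in females and 72.2 to 96.0 CPM in males (0.51 ± 0.08, adjusted p = 0.00409, edgeR). Galnt7 and Galnt10, which add or extend the first sugars, were at 0.44 ± 0.09 and 0.45 ± 0.10 (adjusted p = 0.0112 and 0.0195, edgeR). Chst4, Gcnt3 and Galnt7, 3 of the 27, did not overlap between the sexes, beside 2.18% of all genes. Of 14 tested genes of the secretory machinery, 2 were higher and 0 lower by adjusted p (beside the same 0.777% of all genes higher), and all 14 values were above 0 (median 0.16). They were Ern2, a stress sensor of the endoplasmic reticulum of goblet cells (0.36 ± 0.09, adjusted p = 0.0350), and Sytl2, a granule exocytosis protein (0.43 ± 0.09, adjusted p = 0.0208, edgeR). Of 10 other goblet cell products, 4 were higher and 0 lower by adjusted p, beside 0.777% of all genes higher: Tpsg1, a tryptase (1.13 ± 0.20), Sval1 (0.49 ± 0.12), Fer1l6 (0.43 ± 0.08) and Capn8, a calpain (0.36 ± 0.09). Several of these calls depended on single animals. With each of the 12 animals left out in turn, the call of Capn8 was lost in 10 fits, Sval1 in 9 and Ern2 in 8. That of Galnt10 was lost in 3 and that of Sytl2 in 1. The calls of Chst4, Gcnt3, Galnt7, Tpsg1 and Fer1l6 were lost in 0. Of 8 transcription factors of the goblet lineage, 0 passed the adjusted p in edgeR, 3 had an unadjusted p under 0.05 and DESeq2 called 0. Foxa2 (0.43 ± 0.16) and Foxa3 (0.48 ± 0.22) passed the threshold of the study; Foxa3 turned to -0.18 with the smooth muscle score as a covariate.

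The 6 mucus-modifying enzymes were split. Tgm3, a transglutaminase that cross-links proteins, was 1287 to 1399 CPM in CD females and 765 to 978 CPM in CD males (0.57 ± 0.08, adjusted p = 0.00155, edgeR). Every female was above every male. Tgm2, a related enzyme of many cell types, was lower in females (-0.37 ± 0.10, adjusted p = 0.0486, edgeR). Clca4a and Clca4b, near copies of each other and relatives of Clca1, were also lower (-1.63 ± 0.31 and -3.82 ± 0.92, adjusted p = 0.0110 and 0.0471). Reads can be shared between these copies, so their values are uncertain, and Clca4b ranged from 1.65 to 65.4 CPM in CD males alone. With each of the 12 animals left out in turn, the calls of Tgm2 and Clca4b were each lost in 9 fits. Those of Tgm3 and Clca4a were lost in 0. The other mucins gave 2 genes that could be tested, Muc3 and Muc3a, and both values were below 0 (-0.33 to -0.22) without passing either threshold. Muc5ac and Muc6, mucins of the stomach, had at most 1 count in any library.

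**Figure D4:**
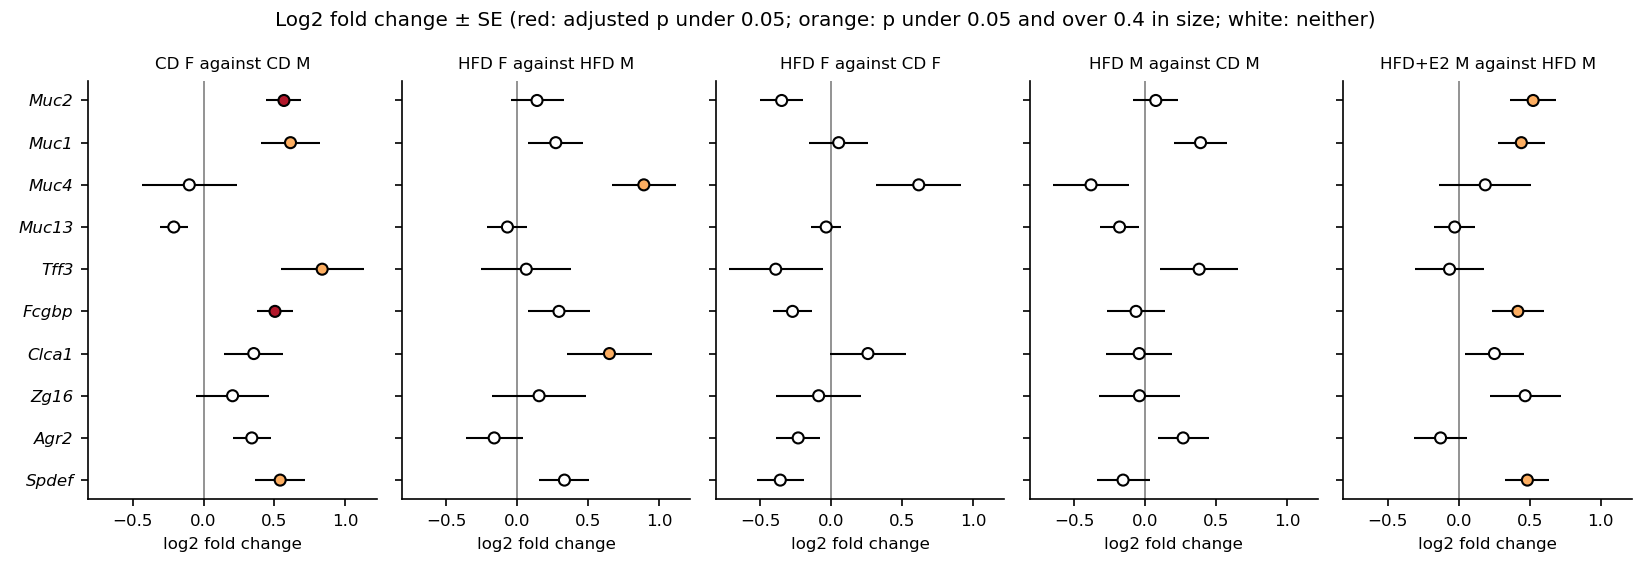
Log2 fold change ± SE (x axes) of the 10 genes (y axis) in the 5 comparisons of groups, n = 6 per group; red, adjusted p under 0.05; orange, the threshold of the study only; white, neither. Red points are found only for Muc2 (0.57) and Fcgbp (0.50) in CD females against CD males.

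The sexes were compared on HFD in the same way, and Muc4 and Clca1 were higher in females at the threshold of the study. None of the 10 passed the adjusted p in edgeR (0.0988% of all genes did), 2 had an unadjusted p under 0.05 and DESeq2 called 1, Muc4 (adjusted p = 0.0392). Both passed the threshold of the study, higher in females, when 3.09% of all genes passed it. Muc4 was 44.3 to 122 CPM in HFD females (median 63.2) and 24.1 to 46.1 CPM in HFD males (median 40.0). The lowest female lay among the males and all others were above them. The log2 fold change was 0.89 ± 0.23 (adjusted p = 0.593, edgeR), and 0.62 ± 0.25 without the 6 libraries with squamous genes. Clca1, the mucus metalloprotease, was 506 to 1597 CPM in females (median 1201) and 407 to 1126 CPM in males (median 691). Its groups overlapped over most of their range (0.65 ± 0.30, adjusted p = 0.872, edgeR, and exact permutation p = 0.132). It was 0.89 ± 0.24 without the libraries with squamous genes. Zg16 was at 0.15 ± 0.33 with all libraries and at 0.63 ± 0.20 without these, where 3 genes, Clca1, Zg16 and Muc4, passed the threshold of the study and 0 the adjusted p (edgeR). That fit held only 2 HFD females and 4 HFD males. Muc2 and Fcgbp, which differed on CD, were at 0.14 ± 0.19 and 0.29 ± 0.22 on HFD. Their medians in HFD females, 2055 and 2410.2 CPM, stood beside 2019 and 1843 CPM in HFD males. The median over the 10 genes was 0.21, and 0.37 without the 6 libraries. Of the related genes, B4galnt2, which makes the Sda-type sugar of colon mucin (0.94 ± 0.38), St3gal1, a sialyltransferase (0.46 ± 0.19), and Clca4b (-2.47 ± 1.04) passed the threshold of the study. Without the 6 libraries B4galnt2 was at 1.31 ± 0.26 and still passed it, and St3gal1 (0.45 ± 0.30) and Clca4b (-2.17 ± 1.11) did not.

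Averaged over the diets, the log2 fold change between the sexes was above 0 in 9 of the 10 genes and below 0 in Muc13. The fit used the 24 vehicle libraries, among them those of the 2 comparisons above. None passed the adjusted p in edgeR (2.2% of all genes did), 5 had an unadjusted p under 0.05, and DESeq2 called 1, Spdef (adjusted p = 0.0340). Spdef was at 0.43 ± 0.13 (adjusted p = 0.0699, edgeR), Muc1 at 0.44 ± 0.15 and Clca1 at 0.50 ± 0.19. These 3 passed the threshold of the study, all higher in females, when 5.58% of all genes passed and 2.72% were higher in females. Fcgbp at 0.40 ± 0.13 and Muc2 at 0.35 ± 0.12 had an unadjusted p under 0.05 without reaching the fold minimum (adjusted p = 0.117 and 0.118, edgeR). Without the 6 libraries with squamous genes, Muc2 was at 0.44 ± 0.10 (adjusted p = 0.0370, edgeR), and 5 genes passed the threshold of the study: Muc2, Tff3, Fcgbp, Clca1 and Spdef. Galnt10 (0.34 ± 0.09), Chst4 (0.69 ± 0.18) and Ern2 (0.33 ± 0.08) were higher in females with an adjusted p of 0.0335, 0.0480 and 0.0312, and Clca4b was lower (-3.15 ± 0.73, adjusted p = 0.0247, edgeR). With each of the 24 animals left out in turn, the call of Chst4 was lost in 17 fits and that of Galnt10 in 13. That of Ern2 was lost in 5 and that of Clca4b in 0. B4galnt2 (0.83 ± 0.23) and Tpsg1 (0.75 ± 0.22) passed only the threshold of the study. Without the 6 libraries Chst4 (0.85 ± 0.17) and B4galnt2 (1.01 ± 0.18) passed the adjusted p (0.0125 and 0.00614, edgeR). Galnt10 (0.35 ± 0.11), Ern2 (0.26 ± 0.10) and Clca4b (-2.99 ± 0.88) then did not, and Tpsg1 was at 0.54 ± 0.26.

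HFD was next compared with CD in each sex. In females, 0 of 10 genes passed the adjusted p in edgeR (0.0199% of all genes did) or in DESeq2. In edgeR, 0 passed the threshold of the study, which 3.67% of all genes passed. The study itself used DESeq2, and its supplement lists Muc4 among the genes that HFD regulated in females. Muc4 had an unadjusted p of 0.0592 in edgeR, and its p in DESeq2 is not given here. In DESeq2 the count at the threshold of the study was above 0, as given with the dependence on the processing. By unadjusted p under 0.05 alone, DESeq2 gave 4 of the 10 genes here, and edgeR gave 2, Muc2 and Spdef. Muc2 was 1412 to 2637 CPM in HFD females against 2299 to 2955 CPM in CD females (-0.35 ± 0.15, adjusted p = 0.805, edgeR, and exact permutation p = 0.0325). The 4 HFD females with squamous genes were below every CD female, and the other 2 were among them. Without the 4, the log2 fold change of Muc2 was 0.00 ± 0.14 and that of Fcgbp changed from -0.27 ± 0.14 to 0.01 ± 0.14. Spdef was 7.56 to 12.3 CPM against 10.7 to 17.1 CPM (-0.36 ± 0.16, adjusted p = 0.868, edgeR, and exact permutation p = 0.0671), and at -0.16 ± 0.21 without the 4. Clca1 went from 0.26 ± 0.27 to 0.69 ± 0.21, without passing the adjusted p, and Zg16 from -0.09 ± 0.30 to 0.51 ± 0.24 when the 4 libraries were left out. Muc4 was at 0.62 ± 0.30, and 0.24 ± 0.38 without them. The median over the 10 genes changed from -0.16 to 0.04. Without the 4 libraries Clca1 passed the threshold of the study, and the sign turned in 5 genes, Muc2, Fcgbp, Zg16, Tff3 and Agr2. Among related genes, Chst4 (-0.72 ± 0.22) and Foxa3 (-0.56 ± 0.19) were lower and St3gal1 (0.42 ± 0.19) and Clca4b (1.79 ± 0.40) higher on HFD at the threshold of the study. None of these 4 passed it without the libraries with squamous genes: Chst4 was then at -0.19 ± 0.20, Foxa3 at -0.43 ± 0.30, St3gal1 at 0.26 ± 0.27 and Clca4b at 0.34 ± 0.44.

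In males, HFD gave no call among the 10 genes with all libraries, and Muc1 passed the threshold of the study without the 2 males with squamous genes. With all libraries none passed the adjusted p in edgeR, where 0% of all 14991 genes tested did (904 had an unadjusted p under 0.05, and DESeq2 called 25), 0 had an unadjusted p under 0.05, and 0 passed the threshold of the study, which 2.9% of all genes passed. The log2 fold changes ran from -0.38 (Muc4) to 0.39 (Muc1), with a median of -0.04. Muc2 was 1208 to 2345 CPM in HFD males and 1408 to 2191 CPM in CD males (0.08 ± 0.16). The 2 ranges overlapped over most of their length. Muc1 was 13.1 to 23.3 CPM in HFD males and 8.94 to 17.0 CPM in CD males (0.39 ± 0.19, adjusted p = 0.825, edgeR, and exact permutation p = 0.104), and 0.51 ± 0.21 without those 2 males, past the threshold of the study and not the adjusted p (0.850, edgeR). Muc3a (-0.43 ± 0.15), St3gal4, a sialyltransferase (0.52 ± 0.23), and Clca4a (-1.11 ± 0.42) passed the threshold of the study. Without the 2 males St3gal4 (0.59 ± 0.23) and Clca4a (-1.49 ± 0.41) still passed it, and Muc3a (-0.36 ± 0.18) did not. Averaged over the sexes, the effect of HFD with all libraries passed neither threshold in any of the 10 genes (0.443% and 2.78% of all genes did; by unadjusted p alone 0 passed, and DESeq2 called 0). The log2 fold changes ran from -0.26 (Spdef) to 0.22 (Muc1). Without the 6 libraries with squamous genes Clca1 was at 0.41 ± 0.18 and passed the threshold of the study, not the adjusted p (0.794, edgeR), and the sign turned in Muc2, Fcgbp, Zg16, Tff3 and Muc4. Chst4 was lower at the threshold of the study (-0.46 ± 0.18), and at -0.10 ± 0.17 without the 6 libraries. The 70 genes called in that contrast held 9 of the 13 squamous genes tested.

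Whether the effect of HFD differed between females and males was tested as an interaction in the 24 vehicle libraries. The adjusted p called 0 of the 10 genes and 0% of all 15800 genes tested (1066 had an unadjusted p under 0.05, and DESeq2 called 3). Muc4 alone passed the threshold of the study (0.99 ± 0.43, adjusted p = 0.694, edgeR), as 5.18% of all genes did. It was at 0.73 ± 0.55 without the 6 libraries with squamous genes. Muc2 was at -0.43 ± 0.23 and Tff3 at -0.78 ± 0.46, with an adjusted p of 0.741 and 0.752 (edgeR). So although Muc2 and Fcgbp passed the adjusted p between the sexes on CD and not on HFD, the difference between these differences did not pass. Galnt7, Sytl2, Sval1 and Tgm3 were negative in this contrast (-0.64 to -0.40), and St3gal1 (0.59 ± 0.26) and Clca4a (1.87 ± 0.71) were positive, at the threshold of the study. Without the 6 libraries with squamous genes Clca4a (2.24 ± 0.59) alone of these 6 passed it.

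The last comparison asked what E2 did in HFD males. Muc2, Spdef, Muc1 and Fcgbp were higher with E2 at the threshold of the study, and none of the 10 genes by adjusted p in edgeR (0.00666% of all genes, 1 gene, passed) or in DESeq2. Thus 4 of 10 passed the threshold of the study, all higher with E2, when 5.87% of all genes passed and 2.63% were higher with E2. Muc2 was 2129 to 3368 CPM in E2-treated males (median 2576) and 1208 to 2345 CPM in vehicle-treated males (median 2019). Only 2 E2-treated animals lay below the highest vehicle-treated one. The log2 fold change was 0.52 ± 0.16 (adjusted p = 0.454, edgeR, and exact permutation p = 0.00866). Spdef was 10.7 to 13.4 CPM against 6.83 to 11.1 CPM (0.48 ± 0.16, adjusted p = 0.455, edgeR, and exact permutation p = 0.00866). In TPM, which for Spdef followed CPM least among the 10 genes (r of the log2 values 0.52, against 0.81 to 0.97), it was 5.0 to 14.4 against 4.11 to 9.80, and 0.28 ± 0.25 on log2(TPM + 1) (adjusted p = 0.664, limma). Muc1 was 19.0 to 30.9 CPM against 13.1 to 23.3 CPM (0.44 ± 0.17, adjusted p = 0.461, edgeR, and exact permutation p = 0.0411), and Fcgbp was 2420.0 to 2989 CPM against 1287 to 3101 CPM (0.42 ± 0.18, adjusted p = 0.476, edgeR, and exact permutation p = 0.0671). Zg16, at 0.47 ± 0.25, had an exact permutation p of 0.156. Clca1 (0.25 ± 0.21), Muc4 (0.19 ± 0.33), Muc13 (-0.03 ± 0.14), Tff3 (-0.07 ± 0.24) and Agr2 (-0.13 ± 0.19) did not pass.

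The 2 vehicle-treated males with squamous genes, replicates 2 and 4, were the lowest in Muc2 and Fcgbp. Without them 0 of the 10 genes passed the threshold of the study. Muc2 was then at 0.35 ± 0.15, Spdef at 0.36 ± 0.17, Muc1 at 0.31 ± 0.18 and Fcgbp at 0.19 ± 0.16 (adjusted p = 0.837 for the first 3 and 0.840 for Fcgbp, edgeR). The directions of these 4 stayed positive, and the median over the 10 genes changed from 0.33 to 0.24. With all libraries, leaving out HFD male replicate 2 or 4, or E2-treated replicate 3, left 2 of the 4 genes past the threshold. In related genes, Nlrp6, a sensor protein needed for mucus granule release (0.55 ± 0.15), Ern2 (0.42 ± 0.13) and the membrane mucin Muc3a (0.44 ± 0.21) were higher with E2 at the threshold of the study, and Fut4, a fucosyltransferase, was lower (-0.40 ± 0.13). Without the 2 males with squamous genes Nlrp6 (0.47 ± 0.17) still passed it, and Ern2 (0.36 ± 0.14), Muc3a (0.37 ± 0.24) and Fut4 (-0.38 ± 0.15) did not. No gene of these lists passed the adjusted p in edgeR. DESeq2 called 0 of them as well. The 3 squamous genes that could be tested had a median log2 fold change of -2.92, the genes of epithelium in general were at a median of 0.05, smooth muscle genes at 0.17 and B cell genes at 0.31. The score of epithelium in general was 7.69 to 7.98 with E2 (median 7.79) and 7.39 to 7.91 with vehicle (median 7.46). With this score or the squamous score as a covariate, 0 of the 10 genes passed the threshold of the study for E2. HFD male animals given vehicle served as controls here and as the treated group in the comparison with CD males, so these results share animals.

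**Figure D5:**
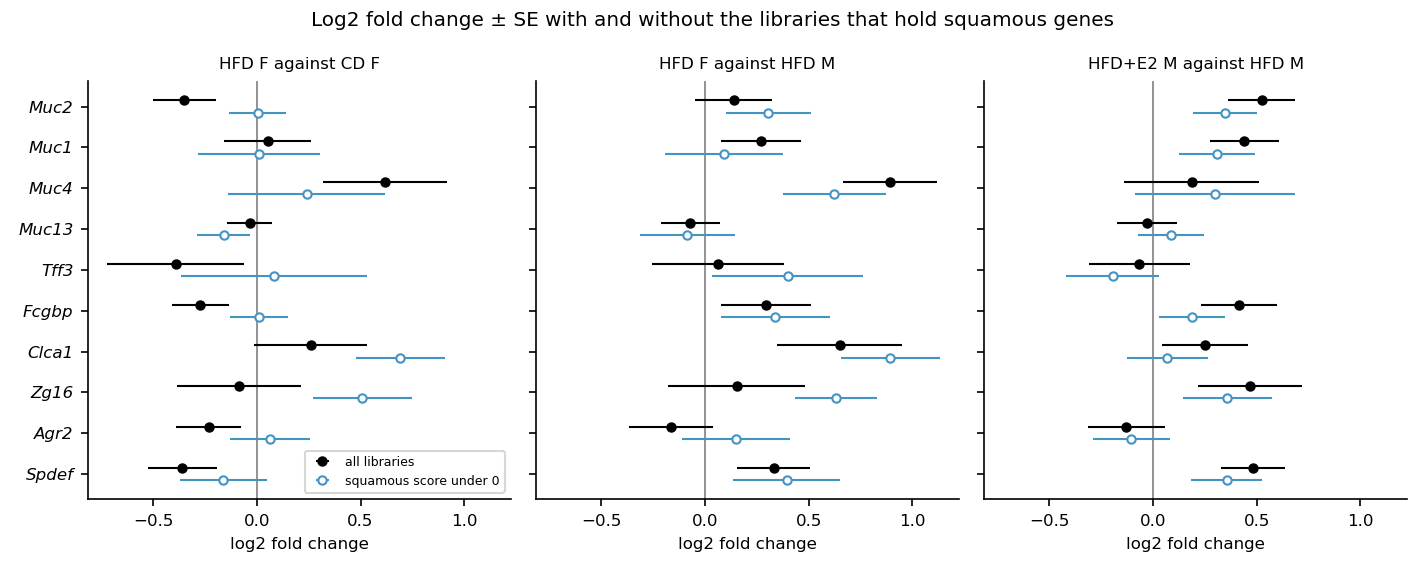
Log2 fold change ± SE (x axes) of the 10 genes (y axis) in 3 comparisons, with all libraries (black) and without the 6 libraries with a squamous score over 0 (open blue). The latter keep 2 HFD females and 4 HFD males. For HFD females against CD females, Muc2 moves from -0.35 to 0.00, and for E2 against vehicle in HFD males from 0.52 to 0.35.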

How the data were processed

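RNA was sequenced from the colon of 30 mice, 6 in each of 5 groups, taken from the sample labels. Per the labels, the authors made reads with bcl2fastq 2.19.1.403, trimmed them with Trim Galore and aligned them with STAR to GRCm38. The authors deposited raw counts per gene from featureCounts and, separately, TPM per gene from StringTie; versions of these tools are not given in the sources used here. Counts were tested with the edgeR quasi-likelihood F-test (edgeR 4.0.16, limma 3.58.1, R 4.3.3) after filterByExpr and TMM normalization, with robust dispersion. The groups of each comparison alone entered its fit, and the 24 vehicle libraries entered the effects of diet, sex and their interaction. P-values were adjusted by Benjamini-Hochberg over all genes tested. Calls were made at an adjusted p under 0.05 and, separately, at the threshold of the study, a log2 fold change beyond 0.4 in either direction with an unadjusted p under 0.05. The study does not say whether its p was adjusted. For HFD in males, its count of genes lies nearer the 434 past this threshold here than the 0 by adjusted p (edgeR). Exact permutation tests were two-sided, on log2 CPM, over 924 splits. Log2 CPM used a prior count of 2. TPM, as deposited, served for levels between genes and as log2(TPM + 1) in limma. P-values measure the spread between these animals. The members and gene lists were chosen with earlier results of these data known. All 10 members were named, and from each other goblet or mucus list the genes past the adjusted p, filled up to 3 per comparison with the lowest p among genes past the threshold of the study. Most alike were the 3 genes with the highest Pearson's r among genes with a mean CPM over 1. Alternatives were DESeq2 1.42.0 and its size factors, other filters, no mitochondrial genes, the replicate number as a block, tissue scores as covariates, all 30 libraries in 1 fit, TPM, and each animal left out. Leaving out the 6 libraries with squamous genes was added after seeing the data. The edgeR and DESeq2 fits were run on simulated counts modelled on the CD libraries, with larger fold changes than those of Muc2 and Fcgbp. No shift in tissue composition was simulated, so this does not cover the HFD and E2 fits. Promoters came from RefSeq (GRCm38.p6) and overlaps from GENCODE M21.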

Additional observations from a re-analysis of the deposited data

Results flagged for a closer look

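In 2 of 50 sets of 6 libraries (10 genes in 5 groups), 1 library stood apart from the others by Dixon's test, which chance alone does in about 1 of 20 sets. Both concern Zg16, the lectin of the mucus, and both are low values. In CD females, replicate 6 had a log2 CPM of 7.84 (2326 counts) and the nearest animal 8.57, so that the gap took 0.681 of the range of the group. In HFD males, replicate 4 had 7.25 (1647 counts) and the nearest animal 8.40, a gap of 0.787 of the range. HFD male replicate 4 is also 1 of the 6 libraries with squamous genes, and the part of these in its value was not tested.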

How the results depend on the processing

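Without the libraries with squamous genes, the sign turned in 5 of the 10 genes for HFD in females and for diet averaged over the sexes, in 3 for HFD in males (Clca1, Fcgbp and Zg16), in 1 between the sexes on HFD (Agr2), for E2 (Muc13) and for the interaction (Zg16), and in 0 for sex averaged over the diets. Signs also turned under other alternatives. Muc4 between CD females and CD males was at 0.73 with the smooth muscle score as a covariate and at 0.03, 0.05 and 0.12 without CD female replicate 2, CD male replicate 2 and CD male replicate 4, with a range of -0.29 to 0.12 over all animals left out. Tff3 and Foxa3 in the same comparison were at -0.12 and -0.18 with that covariate. Muc2 between HFD females and CD females was at 0.035 with the squamous score as a covariate and at 0.0031 without the libraries with squamous genes. Of all 80 fold changes of the 10 genes, 33 changed sign under at least 1 alternative other than leaving out an animal, 2 of them with an unadjusted p under 0.05. Counts of the 10 genes past a threshold moved as follows, and the cause was not tested. Between CD females and CD males, 2 by adjusted p became 5 with the replicate block, 1 with the smooth muscle or squamous covariate, and 0 with the B cell covariate, with all 30 libraries in 1 fit or on the 3 TPM settings; 5 at the threshold of the study became 3 with smooth muscle, 2 with B cells, and 1, 3 and 2 on log2(TPM + 1), log2(TPM + 0.1) and a mean of at least 1 TPM. Between HFD females and HFD males, 0 by adjusted p became 1 in DESeq2; 2 at the threshold of the study became 5 with the squamous covariate and 1 without mitochondrial genes, without a filter, with the replicate block, with each other covariate and on TPM. For HFD in females, 0 became 1 in DESeq2, with the squamous covariate and without the squamous libraries, and 2 with the replicate block. For HFD in males, 0 became 1 with the replicate block, the smooth muscle, squamous or B cell covariate, on log2(TPM + 0.1) and without the squamous libraries. For E2, 4 became 0 with the squamous or epithelium covariate and without the squamous libraries, and 1 on TPM. For diet averaged over the sexes, 0 became 1 without the squamous libraries. For sex averaged over the diets, 0 by adjusted p became 1 in DESeq2, with the replicate block, with smooth muscle, with all 30 libraries and without the squamous libraries, 2 with epithelium and 4 with the squamous covariate; 3 at the threshold of the study became 5 with the replicate block, with epithelium and without the squamous libraries, 6 with the squamous covariate and 1 with B cells. For the interaction, 1 became 2 in DESeq2, 3 with the replicate block, and 0 with the squamous covariate, with all 30 libraries and without the squamous libraries. Leaving out 1 animal gave 0 to 3 genes by adjusted p and 5 to 6 at the threshold of the study between the sexes on CD, 1 to 3 at the latter on HFD, 0 to 3 for HFD in females, 0 to 1 for HFD in males, 2 to 5 for E2, 0 to 1 and 2 to 5 for sex averaged over the diets, and 0 to 4 for the interaction. Replicate numbers only name animals: same-numbered animals correlated between -0.27 and 0.50 over 30 pairs, and 9 of 30 correlated best with their own number. TPM scaling shifted the median log2 fold change of all genes to -0.11 for E2 on log2(TPM + 1). Spdef had the fewest counts of the 10 genes, 70 to 182 per library.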

Other observations

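Among mucins outside the 10 genes, Muc3, a membrane mucin of the intestine, was the most abundant, with a mean of 1248 TPM over 30 libraries and 13966 to 30840 counts per library. Its log2 fold changes were between -0.22 and 0.07 in the 5 comparisons of groups, and none had an unadjusted p under 0.05 in edgeR. Muc3a, listed as a gene of its own, had 70 to 211 counts. The 2 can share reads, so their values are uncertain. Muc5b, a gel-forming mucin of the airways, had at most 14 counts in a library and was at 0 in 25 of 30. Muc15 had at most 55 counts and was at 0 in 22 libraries. These mucins were picked from the list of other mucins after their values were seen.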
